A study of Mus musculus with 13 samples.

Results

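The T cell genes described here are 10 genes of the T cell receptor complex, its coreceptors and the proteins that act with them: Cd3d, Cd3e, Cd3g, Cd4, Cd8a, Cd8b1, Cd2, Lck, Cd28 and Ptprc. They were chosen by symbol, not by a measured value, and all 10 were found among the 14078 genes measured in every library. RNA came from the adrenal gland of C57BL/6 mice with a TAM-inducible loss of Star. Star encodes the protein that carries cholesterol into mitochondria for steroid synthesis. Of the 13 libraries, 5 predate TAM, 4 were taken at 24 h and 4 at 8 weeks. The alleles, the Cre driver, the age and the sex are not given in the sources used here, and no TAM-treated mice with intact Star are analysed here, so time, TAM and loss of Star cannot be told apart. The labels number the libraries within a group without saying that each is a separate animal, so each p-value reflects only how these samples vary, which may be technical variation.

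T cells recognise peptides through the T cell receptor, whose signal is passed into the cell by the CD3 chains. The coreceptors CD4 and CD8 bind MHC class II and class I and bring the kinase LCK to the receptor, CD28 gives the costimulatory signal, CD2 is an adhesion receptor, and the phosphatase CD45, encoded by Ptprc, keeps LCK ready to act. CD3 chains are the defining markers of T cells, whereas CD45 is carried by nearly all leucocytes and CD4 is also found on some dendritic cells and macrophages. Bulk RNA from a gland cannot tell fewer cells of a type from less RNA per cell.

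Listed reads per library ran from 17331673 to 27309429. Star stood between 3207 and 4239 FPKM (fragments scaled by transcript length and sequencing depth, as deposited) before TAM, between 17.4 and 626 FPKM at 24 h and between 85.9 and 202 FPKM at 8 weeks. Of 7 cortical steroid cell markers, 4 fell at 8 weeks, among them Hsd3b1, a steroid dehydrogenase (log2 fold change −3.37, SE 0.38, adjusted p = 3.7e-05), so the labelled tissue held steroid cell RNA that changed with the groups. Some libraries stood apart in their marker levels. Before replicate 1 had a summed FPKM of 186 for 8 fat cell markers, against 1631 to 1781 in the other before libraries, and the highest level within its group of 9 of the 10 T cell genes. Before replicate 2 had 65.7 summed FPKM of neutrophil and mast cell markers, against 7.73 to 15.6 in the other before libraries. Replicate 3 at 24 h was low in medulla markers (18.7 summed FPKM, group median 1151, with replicate 4 at 115), in cortical markers (4354, group median 9272) and in fat cell markers (62.8, with 1 gene at 0, against 2124 to 4257 in the other 24 h libraries). Replicate 1 at 8 weeks had 118 summed FPKM of 6 B cell markers and 1842 of 7 neutrophil and mast cell markers, against at most 29.4 and 49.0 in the other 8-week libraries, and was the highest 8-week library for all 10 T cell genes.

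At 8 weeks all 10 T cell genes were higher than before TAM, by log2 fold changes of 1.91 (Lck) to 3.27 (Cd8a), where 20.5% of all genes tested were called higher. For 9 of the 10, every 8-week library lay above every before library, a pattern met by 18.1% of all genes, and the exception was Cd3g, which overlapped through before replicate 1. Without 8-week replicate 1 the 10 log2 fold changes ran from 1.63 to 3.06, and without before replicate 1 from 2.07 to 4.28, all called. At 24 h 4 of the 10 were higher than before TAM (Cd4, Ptprc, Cd28 and Cd8b1), where 12.6% of all genes were called higher. Without before replicate 1 this count was 7, with Cd3e, Cd3g and Cd2 added. Between 8 weeks and 24 h 3 of the 10 were higher at 8 weeks (Cd3d, Cd3e and Cd2), where 10.1% of all genes were called higher. Cd4 and Ptprc were the genes whose 24 h libraries all lay above the before libraries, as 9.75% of all genes did. The 3 CD3 genes were those whose 8-week libraries all lay above the 24 h libraries, as 9.92% of all genes did. The one negative log2 fold change of the 10 was that of Cd4 at 8 weeks against 24 h. Of all genes, 16.4% were called lower at 8 weeks than before, 6.63% at 24 h than before and 10.6% at 8 weeks than at 24 h. The median log2 fold change over the 10 genes was 3.05 at 8 weeks against before and 1.43 at 24 h against before, beside 0.03 over all genes tested in both, and 1.53 at 8 weeks against 24 h, beside −0.03.

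The counts carry a limit from the way the tables were made. A transcript was listed only if it reached 16 expected reads in at least 4 before libraries or in at least 3 libraries of the later group, which held for 19655 of 19655 transcripts of the before and 8-week tables. Cd4, Lck, Cd28 and Ptprc met this in the before libraries. The other 6, Cd3d, Cd3e, Cd3g, Cd8a, Cd8b1 and Cd2, were listed through the later libraries alone, so a high level after TAM was in part required for them to be listed. The count of 10, the 9 genes without overlap and the median log2 fold changes against before are therefore not offered as support. Of the 19655 transcripts, 1684 were listed through the 8-week libraries alone, so the values over all genes are not a like comparison for such genes. For these 6 genes the p-values against before, and those of the ratios to Cd3e, carry the same limit.

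**Figure D1:**
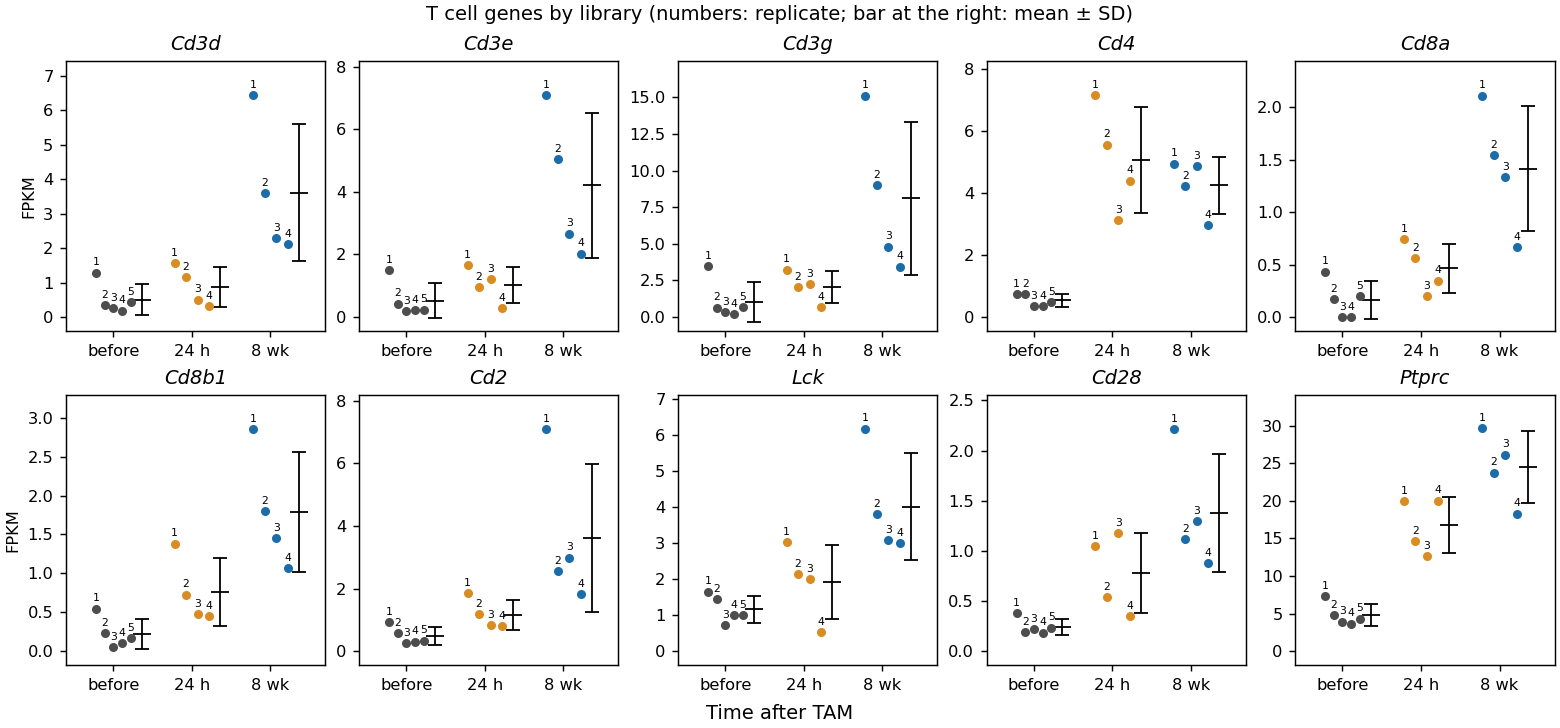
FPKM of each of the 10 T cell genes (vertical axis) in the 13 libraries, grouped by time after TAM, with points numbered by replicate and the mean ± SD at the right of each group. The Cd3 genes were highest at 8 weeks, with before replicate 1 above its group, whereas Cd4 stood at 3.12 to 7.16 FPKM at 24 h and 2.95 to 4.94 FPKM at 8 weeks.

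The 3 CD3 genes encode the delta, epsilon and gamma chains of the receptor complex and lie side by side on chromosome 9 of mm10, within 40019 bases. Cd3g (chr9:44969572-44980431, minus strand) and Cd3d (chr9:44981786-44987052, plus strand) are divergent, with starts 1355 bases apart, and Cd3e (chr9:44998743-45009590, minus strand) follows. Promoter windows from RefSeq on GRCm38.p6, 250 bases before to 50 after the start, are shown for these neighbours because their levels moved together; 6 of the 10 genes matched the promoter table. Capitals mark matches on either strand to CACCTG, an E-box form bound by E proteins. They also mark AGATAA, the core named for GATA factors, and TCAAAG, the core named for TCF and LEF factors. TGTGGT, the core named for RUNX factors, was searched in the same way.
Cd3d: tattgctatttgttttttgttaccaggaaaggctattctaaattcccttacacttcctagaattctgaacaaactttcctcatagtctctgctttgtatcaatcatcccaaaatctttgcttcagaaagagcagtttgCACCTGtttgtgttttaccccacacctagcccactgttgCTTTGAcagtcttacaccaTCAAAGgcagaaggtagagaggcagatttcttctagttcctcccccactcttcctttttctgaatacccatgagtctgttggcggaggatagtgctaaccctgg
Cd3e: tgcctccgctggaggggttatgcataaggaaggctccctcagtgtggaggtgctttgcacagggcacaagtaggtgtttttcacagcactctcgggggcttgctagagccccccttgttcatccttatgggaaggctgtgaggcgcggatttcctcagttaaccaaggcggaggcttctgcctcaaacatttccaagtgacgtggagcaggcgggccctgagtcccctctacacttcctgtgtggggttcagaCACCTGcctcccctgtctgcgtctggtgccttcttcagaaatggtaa
Cd3g: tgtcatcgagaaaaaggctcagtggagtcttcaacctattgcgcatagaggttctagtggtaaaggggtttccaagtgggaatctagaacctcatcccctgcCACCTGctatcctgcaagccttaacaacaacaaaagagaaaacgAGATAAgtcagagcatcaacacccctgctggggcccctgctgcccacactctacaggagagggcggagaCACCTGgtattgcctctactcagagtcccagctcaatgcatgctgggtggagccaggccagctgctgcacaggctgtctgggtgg
The windows run over chr9:44981536-44981835 (plus strand) for Cd3d, chr9:45009562-45009861 (minus strand) for Cd3e and chr9:44980382-44980681 (minus strand) for Cd3g. CACCTG was found once in the Cd3d and Cd3e windows and 2 times in that of Cd3g, where 20.2% of 32851 promoter windows hold it. TCAAAG was found 2 times in Cd3d only among the 3 (16% of windows) and AGATAA once in Cd3g only among the 3 (11.2% of windows). The letters TGTGGT (16.8% of windows) and TATAAA (13.6% of windows) are not in these 3 windows, while the short ETS core GGAA, not capitalised, is in each of them and in 96% of all windows. None of the capitals overlap one another, and a match describes the letters only.

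Cd3e, the chain at the centre of the complex, had 1.503, 0.425, 0.195, 0.208 and 0.236 FPKM in the before libraries. Cd3e had 1.65, 0.966, 1.22 and 0.283 FPKM at 24 h and 7.08, 5.04, 2.67 and 2.02 FPKM at 8 weeks. The 8-week libraries lay above all others, while the 24 h and before libraries overlapped, with before replicate 1 near the top of the 24 h range. These levels rest on 6 to 53 reads per before library, 9 to 63 at 24 h and 56 to 291 at 8 weeks. Cd3e was higher at 8 weeks than before by a log2 fold change of 3.14 (SE 0.67, adjusted p = 0.0031) and higher at 8 weeks than at 24 h by 2.14 (SE 0.70, adjusted p = 0.046). At 24 h against before its log2 fold change was 1.00 (SE 0.66, adjusted p = 0.32), and without before replicate 1 it was 1.94 and called (adjusted p = 0.031). The call at 8 weeks against 24 h was lost in 10 of 13 fits that left out 1 library (adjusted p from 0.051 to 0.12), and held without 24 h replicate 1, before replicate 1 or before replicate 3.

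Cd3g had 3.46, 0.636, 0.308, 0.195 and 0.662 FPKM in the before libraries. Cd3g had 3.24, 2.05, 2.24 and 0.663 FPKM at 24 h and 15.1, 9.03, 4.81 and 3.45 FPKM at 8 weeks. It was the highest of the CD3 genes in mean FPKM at each time, and its lowest 8-week library lay just under before replicate 1. Its log2 fold change came to 3.06 (SE 0.77, adjusted p = 0.0077) at 8 weeks against before. It came to 0.97 (SE 0.74, adjusted p = 0.41) at 24 h against before and to 2.09 (SE 0.80, adjusted p = 0.077) at 8 weeks against 24 h. Without before replicate 1, Cd3g was called at 24 h against before (log2 fold change 2.18, adjusted p = 0.026) and at 8 weeks against 24 h (2.09, adjusted p = 0.026).

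Cd3d had 1.29, 0.336, 0.263, 0.187 and 0.437 FPKM in the before libraries. Cd3d had 1.56, 1.16, 0.504 and 0.306 FPKM at 24 h and 6.43, 3.60, 2.30 and 2.11 FPKM at 8 weeks. As for Cd3e, every 8-week library lay above every earlier one, and the 24 h and before libraries overlapped. Its log2 fold change came to 2.96 (SE 0.62, adjusted p = 0.0027) at 8 weeks against before. It came to 0.83 (SE 0.61, adjusted p = 0.38) at 24 h against before and to 2.13 (SE 0.65, adjusted p = 0.036) at 8 weeks against 24 h. The last call was lost on leaving out 8-week replicate 1 or 2, 24 h replicate 2, 3 or 4, or before replicate 5 (adjusted p from 0.051 to 0.10). Within groups the 3 genes kept nearly 1 order of libraries: replicate 1 was the highest of the 8-week and of the before libraries for each, and replicate 4 the lowest of the 8-week and 24 h libraries for each.

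**Figure D2:**
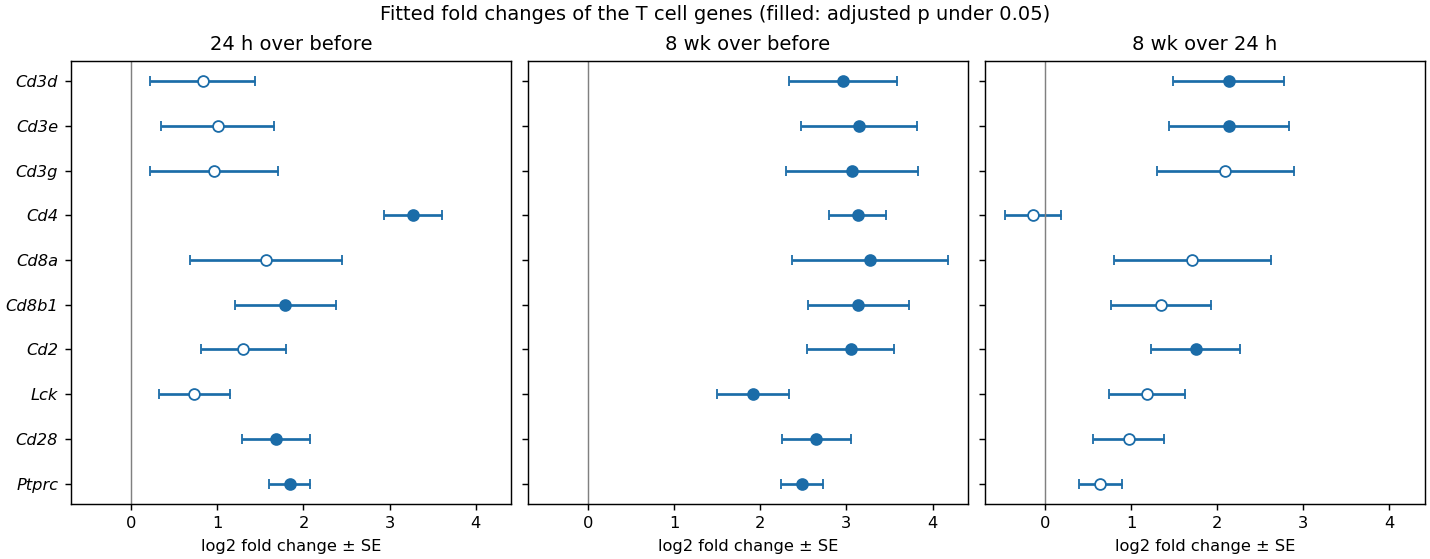
Fitted log2 fold change ± SE (horizontal axis) of each T cell gene in the 3 comparisons, with filled points for genes called at an adjusted p under 0.05. At 8 weeks over before all points are filled between 1.91 and 3.27, at 24 h over before Cd4 stands apart at 3.27, and at 8 weeks over 24 h Cd4 lies at −0.14 while the CD3 genes lie at 2.09 to 2.14.

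Cd4, the gene of the MHC class II coreceptor (chr6:124864693-124888209, minus strand), followed another course. It had 0.737, 0.749, 0.351, 0.354 and 0.485 FPKM in the before libraries. Cd4 had 7.16, 5.56, 3.12 and 4.40 FPKM at 24 h and 4.94, 4.21, 4.88 and 2.95 FPKM at 8 weeks. All libraries after TAM lay above all before libraries, and the 24 h and 8-week libraries overlapped. Cd4 was higher at 24 h than before by a log2 fold change of 3.27 (SE 0.33, adjusted p = 1.1e-04) and at 8 weeks than before by 3.13 (SE 0.33, adjusted p = 2.6e-05). Set against 24 h, Cd4 at 8 weeks differed by −0.14 (log2, SE 0.33, adjusted p = 0.79), and that sign turned when 8-week replicate 4 or 24 h replicate 1 was left out (0.0070 and 0.070).

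Cd4 was therefore set against Cd3e within each library, as the log2 ratio of FPKM after adding 0.05 to each. The ratio was −0.98, 0.75, 0.71, 0.65 and 0.90 in the before libraries, 2.08, 2.46, 1.32 and 3.74 at 24 h, and −0.51, −0.26, 0.86 and 0.53 at 8 weeks. At 24 h Cd4 stood above Cd3e in every library and the ratios did not overlap with those of either other time. The mean ratio was 2.40 ± 1.01 (SD, n = 4) at 24 h and 0.41 ± 0.78 (SD, n = 5) before TAM, a difference of 2.00 (two-sided exact permutation test, p = 0.016, the smallest p 4 against 5 libraries allow, and adjusted p = 0.048 over 9 ratio tests). Without before replicate 1 that difference was 1.65 (exact permutation p = 0.029). At 8 weeks the mean ratio was 0.16 ± 0.65 (SD, n = 4), a difference of −2.25 from 24 h (exact permutation p = 0.029, the smallest possible, adjusted p = 0.051) and of −0.25 from before (exact permutation p = 0.65).

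Cd4 was next set against Csf1r, the receptor of macrophage colony-stimulating factor and a macrophage marker. Csf1r averaged 17.6 ± 4.44 FPKM before TAM (SD, n = 5), 57.1 ± 14.8 at 24 h and 45.2 ± 13.1 at 8 weeks (SD, n = 4 each), and was higher than before at 24 h (log2 fold change 1.74, SE 0.28, adjusted p = 0.0011) and at 8 weeks (1.51, SE 0.28, adjusted p = 0.0012). The log2 ratio of Cd4 to Csf1r ran from −5.92 to −4.32 before TAM, from −3.99 to −3.12 at 24 h and from −3.71 to −2.98 at 8 weeks, with no overlap between the before libraries and either later group. Its mean was −3.50 ± 0.36 (SD, n = 4) at 24 h and −4.94 ± 0.62 (SD, n = 5) before TAM, a difference of 1.44, and −3.38 ± 0.31 (SD, n = 4) at 8 weeks, a difference of 1.56 from before (exact permutation p = 0.016 and adjusted p = 0.048 for both). The ratio differed by 0.12 between 8 weeks and 24 h (exact permutation p = 0.63). Cd4 thus rose more than Csf1r at both times, and which cells carried the Cd4 reads was not tested.

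**Figure D3:**
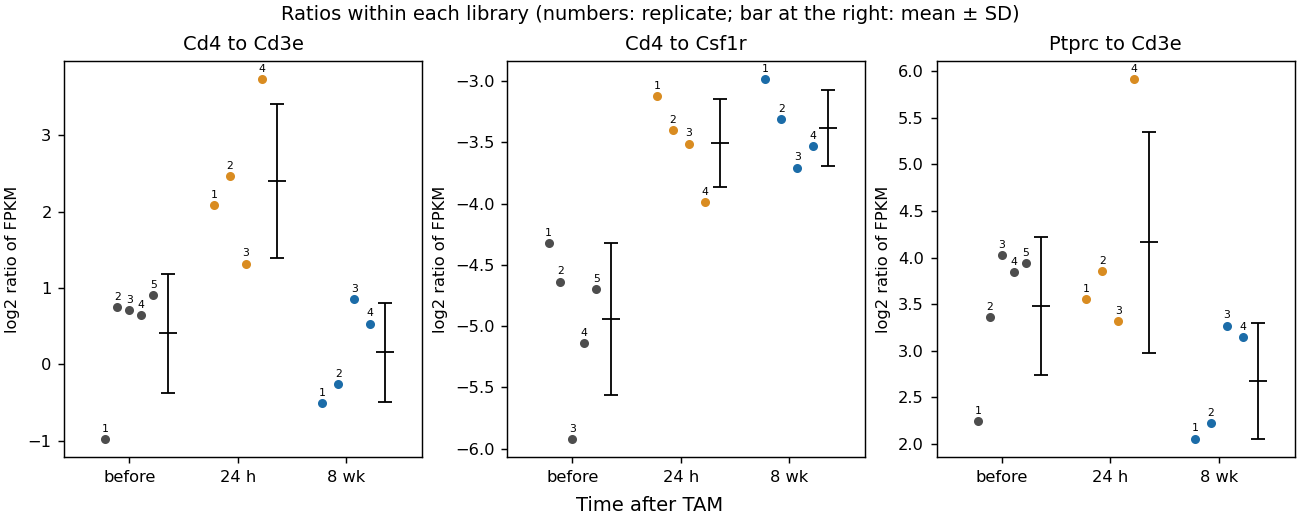
Log2 ratios of FPKM within each library (vertical axis), with points numbered by replicate and the mean ± SD at the right of each group, by time after TAM. The ratio of Cd4 to Cd3e is high at 24 h only (mean 2.40), that of Cd4 to Csf1r is higher than before at both later times, and that of Ptprc to Cd3e is lowest in mean at 8 weeks (2.68).

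The CD8 coreceptor is a dimer of the alpha and beta chains, encoded by Cd8a (chr6:71373427-71379171) and Cd8b1 (chr6:71322812-71337451), both on the plus strand and 35976 bases apart. Cd8b1 had 0.546, 0.230, 0.0494, 0.105 and 0.171 FPKM in the before libraries. Cd8b1 had 1.38, 0.728, 0.473 and 0.447 FPKM at 24 h and 2.85, 1.80, 1.45 and 1.06 FPKM at 8 weeks. The 8-week libraries lay above all before libraries but overlapped those of 24 h. Cd8b1 was higher at 8 weeks than before by a log2 fold change of 3.14 (SE 0.59, adjusted p = 0.0014), and at 24 h than before by 1.79 (SE 0.58, adjusted p = 0.048), a call that held in the fits without before replicate 1 or 24 h replicate 3 and was lost in the other 11 of 13 that left out 1 library (adjusted p from 0.051 to 0.14). At 8 weeks against 24 h its log2 fold change was 1.35 (SE 0.58, adjusted p = 0.11).

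Cd8a had 0.433, 0.169, 0, 0.000131 and 0.201 FPKM in the before libraries. Cd8a had 0.743, 0.560, 0.203 and 0.347 FPKM at 24 h and 2.11, 1.54, 1.34 and 0.669 FPKM at 8 weeks. Its order of groups was that of Cd8b1, but its values are less certain. The tables list 1 of its 2 RefSeq models, 12 of its 13 expected counts are not whole, and before replicates 3 and 4 hold about 0.0081 and 0.0082 expected reads, which may be failed estimates. Its log2 fold change came to 3.27 (SE 0.90, adjusted p = 0.013) at 8 weeks against before. It came to 1.56 (SE 0.88, adjusted p = 0.25) at 24 h against before and to 1.71 (SE 0.91, adjusted p = 0.19) at 8 weeks against 24 h. In the authors' deposited table, which compares 8 weeks with before, its log2 ratio was 6.68 with a q-value of 0.12, whereas the q-values of the other single-model genes ran from 8.1e-04 (Cd4) to 0.022 (Cd3g).

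Lck (chr4:129548344-129573641, minus strand), the kinase that phosphorylates the CD3 chains, had 1.65, 1.45, 0.733, 0.996 and 1.01 FPKM in the before libraries. Lck had 3.02, 2.15, 1.99 and 0.536 FPKM at 24 h and 6.17, 3.80, 3.08 and 2.99 FPKM at 8 weeks. Replicate 4 at 24 h lay below every before library and the other 24 h libraries lay above them. Lck had the smallest rise of the 10 at 8 weeks against before (log2 fold change 1.91, SE 0.42, adjusted p = 0.0034). It was not called at 24 h against before (0.73, SE 0.41, adjusted p = 0.25), and without 24 h replicate 4 it was (1.04, adjusted p = 0.049). At 8 weeks against 24 h its log2 fold change was 1.18 (SE 0.44, adjusted p = 0.071). The tables list 1 of its 3 RefSeq models, and 9 of its 13 counts are not whole.

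Cd28 (chr1:60746388-60773359, plus strand), the costimulatory receptor for CD80 and CD86, had 0.377, 0.188, 0.219, 0.185 and 0.235 FPKM in the before libraries. Cd28 had 1.05, 0.542, 1.17 and 0.346 FPKM at 24 h and 2.22, 1.12, 1.30 and 0.877 FPKM at 8 weeks. It was higher at 8 weeks than before by a log2 fold change of 2.65 (SE 0.40, adjusted p = 3.1e-04) and at 24 h than before by 1.68 (SE 0.39, adjusted p = 0.010), and it stayed called at 24 h in all 13 fits that left out 1 library (adjusted p at most 0.030). Between 8 weeks and 24 h the groups overlapped (log2 fold change 0.97, SE 0.41, adjusted p = 0.10). Replicate 3 at 24 h, low in medulla and cortical markers, held the highest 24 h level of Cd28.

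Cd2 (chr3:101275908-101287939, minus strand), an adhesion receptor of lymphocytes, had 0.925, 0.568, 0.245, 0.305 and 0.338 FPKM in the before libraries. Cd2 had 1.84, 1.18, 0.836 and 0.790 FPKM at 24 h and 7.08, 2.55, 2.99 and 1.81 FPKM at 8 weeks. Its groups stood in order of time, with overlap between neighbours. Its log2 fold change came to 3.05 (SE 0.51, adjusted p = 5.9e-04) at 8 weeks against before. It came to 1.30 (SE 0.50, adjusted p = 0.086) at 24 h against before and to 1.75 (SE 0.52, adjusted p = 0.032) at 8 weeks against 24 h. Without 8-week replicate 1, whose B cell and neutrophil markers were also the highest, the last was 1.21 (adjusted p = 0.11), and the part of those cells in it was not tested. That call was also lost on leaving out 8-week replicate 3 or 24 h replicate 2, 3 or 4 (adjusted p from 0.051 to 0.071). Without before replicate 1 the rise at 24 h was 1.69 and called (adjusted p = 0.039).

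Ptprc (chr1:138062859-138175305, minus strand) was the most abundant of the 10 at every time. It had 7.31, 4.81, 3.95, 3.66 and 4.34 FPKM in the before libraries. Ptprc had 19.9, 14.7, 12.6 and 20.04 FPKM at 24 h and 29.6, 23.8, 26.2 and 18.3 FPKM at 8 weeks. Both later groups lay wholly above the before libraries and overlapped one another through 8-week replicate 4. Ptprc was higher at 24 h than before by a log2 fold change of 1.84 (SE 0.24, adjusted p = 3.5e-04) and at 8 weeks than before by 2.48 (SE 0.24, adjusted p = 1.7e-05), and its difference between 8 weeks and 24 h was 0.64 (SE 0.25, adjusted p = 0.085). Replicate 4 at 24 h had the highest Ptprc of its group and the lowest level there of 7 of the 10 genes, the CD3 genes included. The log2 ratio of Ptprc to Cd3e averaged 3.48 ± 0.74 before TAM (SD, n = 5), 4.16 ± 1.19 at 24 h and 2.68 ± 0.62 at 8 weeks (SD, n = 4 each). It was lower in every 8-week library than in every 24 h library, by 1.49 on average (exact permutation p = 0.029, the smallest possible, adjusted p = 0.051). It differed by −0.81 between 8 weeks and before (exact permutation p = 0.11) and by 0.68 between 24 h and before (exact permutation p = 0.46), but these 3 differences depended on the value added to FPKM.

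Ptprc is spliced into several forms, and the tables split its reads by estimate between 2 of its 3 RefSeq models. The share of its FPKM in the model NM_001268286 was 54.0%, 31.4%, 13.6%, 26.4% and 15.7% in the before libraries, 32.3%, 63.4%, 52.6% and 23.2% at 24 h, and 94.0%, 90.9%, 53.2% and 45.9% at 8 weeks. The groups overlapped. In the authors' deposited table the log2 ratio of 8 weeks over before was 3.81 for this model (q-value 0.0053) and 0.51 for the model NM_011210 (q-value 0.55). Since reads common to both models are divided by estimate, the sum over models was used for the tests.

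Genes that work with these proteins were read from 5 lists of 79 genes, of which 58 were tested in every library. The lists also hold genes of natural killer cells, of antigen-presenting cells and of many other cell types. Of all genes tested, 20.5% were called higher at 8 weeks and 12.6% at 24 h than before. The share was 10.1% at 8 weeks against 24 h. Some list genes met the listing rule through later libraries alone. Among them were Cd247 (4 to 19 reads per before library), Lat (7 to 38), Cd80 (7 to 17) and Klrd1 (6 to 45). Their p-values against before, and the list counts against before here and below, carry the listing limit. Of 15 tested genes of the receptor complex and its proximal signalling, 10 were higher and 2 lower at 8 weeks than before (median log2 fold change 1.89, beside 0.03 over all genes), 6 were higher and 1 lower at 24 h than before (median 1.25), and 3 were higher and 1 lower at 8 weeks than at 24 h (median 0.76). Cd247, the zeta chain of the complex, averaged 0.272 ± 0.136 FPKM before TAM, 0.941 ± 0.139 at 24 h and 2.10 ± 0.652 at 8 weeks (SD, n = 5, 4 and 4), and rose in each comparison (at 8 weeks against before, log2 fold change 3.03, SE 0.38, adjusted p = 7.5e-05). Lat, the adaptor below the receptor, averaged 5.59 ± 2.38 FPKM at 8 weeks and 0.953 ± 0.183 at 24 h (n = 4 each), a log2 fold change of 2.66 (SE 0.46, adjusted p = 0.0041), and did not pass the test at 24 h against before (0.66, SE 0.42, adjusted p = 0.31). Ptpn22, a phosphatase of lymphocytes, was higher at 8 weeks than before (1.89, SE 0.31, adjusted p = 5.0e-04). The 2 that fell at 8 weeks, named after their values were seen, were Fyn (log2 fold change −0.77) and Plcg1 (−0.85), a kinase and a phospholipase also used by many other cell types, and the 1 that fell at 24 h was the adaptor Skap1 (−1.69). Zap70, the kinase that docks on phosphorylated CD3 chains, averaged 0.671 ± 0.201 FPKM at 8 weeks and 0.414 ± 0.262 before TAM (log2 fold change 0.82, SE 0.50, adjusted p = 0.21), also named after its values were seen.

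Of 8 tested genes of costimulation and coinhibition, 6 were higher at 8 weeks than before (median log2 fold change 2.42) and 4 at 24 h than before (median 1.43). At 8 weeks against 24 h 1 was higher, near the share of all genes, 10.1%. The 4 called at 24 h were Lag3, Cd80, Cd86 and Havcr2. Icos, Cd226, Btla and Cd96 were not called there (adjusted p = 0.085, 0.50, 0.87 and 0.34). Havcr2 and these uncalled genes were named after their values were seen. Lag3, an inhibitory receptor, was higher at 8 weeks (log2 fold change 2.52, SE 0.30, adjusted p = 5.2e-05) and at 24 h (1.77, SE 0.29, adjusted p = 0.0013) than before. Cd80 (2.31 at 8 weeks, adjusted p = 2.7e-04) and Cd86 (1.82, adjusted p = 3.4e-04) are the ligands of CD28 on antigen-presenting cells and were also called at 24 h (1.44 and 1.68). Of 15 homing and cytokine receptor genes, 12 were higher at 8 weeks (median 1.91) and 4 at 24 h (median 1.04) than before. At 8 weeks against 24 h 2 of the 15 were higher, also near the share of all genes. Il7r, the receptor of a survival cytokine of T cells, averaged 1.10 ± 0.869 FPKM before TAM (n = 5), 12.4 ± 3.93 at 24 h and 38.6 ± 7.17 at 8 weeks (SD, n = 4 each), with log2 fold changes of 3.51 (SE 0.48, adjusted p = 4.3e-04) and 5.27 (SE 0.51, adjusted p = 1.6e-05) over before. Il2rg, the shared cytokine receptor chain, was also higher at 8 weeks (2.11, SE 0.28, adjusted p = 1.2e-04). Il7r stood at 38.6 FPKM where Cd3e stood at 4.20 and Cd3g at 8.11 FPKM at 8 weeks, and which cells carried its reads was not tested.

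Of 8 cytotoxic and natural killer genes tested, 4 were higher at 8 weeks (median log2 fold change 1.03) and 1 at 24 h than before. At 8 weeks against 24 h 1 was higher. The counts at 24 h and at 8 weeks against 24 h are near the shares of all genes called higher there, 12.6% and 10.1%. The gene called against before at both times was the chemokine Ccl5 (2.09, SE 0.35, adjusted p = 5.9e-04 at 8 weeks, and 1.39, SE 0.34, adjusted p = 0.013 at 24 h). Klrd1, a natural killer receptor chain, was higher at 8 weeks than before (2.37, SE 0.57, adjusted p = 0.0059), and so was Klrk1, the receptor NKG2D. For both, the 8-week and before libraries overlapped. Gzma (log2 fold change −0.21), Gzmb (−0.31), Ncr1 (0.30) and Klrb1c (0.42), named after their values were seen, were not called at 8 weeks against before. Of 12 transcription factors named for T cells, 5 were higher and 2 lower at 8 weeks than before (median log2 fold change 0.74). Ikzf1, a factor of all lymphocytes, was higher (2.55, SE 0.37, adjusted p = 2.3e-04). The 2 that fell were Tcf7, at 5.12 ± 1.54 FPKM at 8 weeks (n = 4) and 17.6 ± 2.69 before TAM (SD, n = 5; log2 fold change −1.65, SE 0.30, adjusted p = 0.0012), and Lef1 (−1.96, SE 0.32, adjusted p = 4.9e-04), factors of naive T cells that also act in Wnt signalling in other tissues. Before TAM, Tcf7 and Lef1 stood at 17.6 and 5.57 FPKM where Cd3e stood at 0.513 FPKM. Of the 12 factors, 3 were higher and 2 lower at 24 h than before (median log2 fold change 0.36). At 8 weeks against 24 h 2 were higher and 2 lower (median 0.45). Of all genes, 6.63% and 10.6% were called lower in these comparisons.

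Some list genes were listed for before and 8 weeks only and were tested in a fit of those libraries. Such genes entered through the 8-week libraries, so their rise was in part required for listing and their counts carry no weight. Cd40lg, the helper T cell ligand, had 82 reads over the 8-week libraries and 6 over the before libraries, Themis, a T cell selection adaptor, had 103 and 20, and Tnfrsf18, the receptor GITR, had 104 and 18.

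Markers of other leucocytes also differed between the groups. Beside the counts below, 20.5% of all genes were called higher at 8 weeks and 12.6% at 24 h than before. The share was 10.1% at 8 weeks against 24 h. Of 12 macrophage markers tested, 11 were higher at 8 weeks and 10 at 24 h than before, and 14 of 14 pan-leucocyte genes were higher in both. Between 8 weeks and 24 h, 1 of the 12 macrophage markers was higher and 1 lower at 8 weeks, and 3 of the 14 pan-leucocyte genes were higher. Summed over the list, macrophage markers ran from 352 to 961 FPKM before TAM, from 1738 to 3398 at 24 h and from 3806 to 7642 at 8 weeks, and pan-leucocyte genes from 104 to 208, from 426 to 825 and from 622 to 1088 FPKM at the same times. Dendritic cell markers were higher in 5 of 7 cases at 8 weeks and 2 of 7 at 24 h, with sums of 5.44 to 13.3 FPKM before TAM, 24.7 to 39.7 at 24 h and 57.9 to 89.5 at 8 weeks. B cell markers were higher in 6 of 6 cases at 8 weeks and in 1 of 6 at 24 h (Cd22) than before. At 8 weeks against 24 h, 5 of 6 were called higher by edgeR, where DESeq2 called 5 and limma 1. The B cell sums ran from 2.31 to 8.69 FPKM before TAM and from 7.57 to 12.5 at 24 h. At 8 weeks they ran from 13.2 to 118 FPKM, or to 29.4 without 8-week replicate 1. Neutrophil and mast cell markers were higher in 4 of 7 cases at 8 weeks and in 1 of 7 at 24 h than before, the latter near the share of all genes. The calls of S100a8 (log2 fold change 5.29) and Cxcr2 (2.44) at 8 weeks were lost without 8-week replicate 1 (1.02 and 0.37, adjusted p = 0.53 and 0.68). Over the 13 fits that left out 1 library, the Cxcr2 call was lost in 8 and the S100a8 call in 1. Between 8 weeks and 24 h, 0 of 7 were called by edgeR (4 at an unadjusted p under 0.05), 0 by DESeq2 and 1 by limma. Their sums ran from 7.73 to 65.7 FPKM before TAM, from 22.9 to 43.5 at 24 h and from 23.7 to 1842 at 8 weeks, or to 49.0 without 8-week replicate 1. No tested macrophage, dendritic, B cell, neutrophil and mast cell or pan-leucocyte marker stood at 0 in any library. The 10 T cell genes summed to 6.20 to 18.2 FPKM before TAM, 24.4 to 41.6 at 24 h and 36.3 to 83.7 at 8 weeks, Ptprc included. The part of each other cell type, dendritic cells included, in the levels of Cd4, Cd8a, Ptprc, Cd2 and Cd28 was not tested. Among other tissue markers, 4 of 8 fat cell genes were higher at 8 weeks than before (median log2 fold change 3.00), and 0 of 8 at 24 h. For 7 of the 8, every 8-week library lay above every before library, as for 18.1% of all genes. Their sums ran from 186 to 1781 FPKM before TAM, from 62.8 to 4257 at 24 h and from 7443 to 15290 at 8 weeks. Whether this change in fat cell RNA bears on the levels of the T cell genes was not tested.

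**Figure D4:**
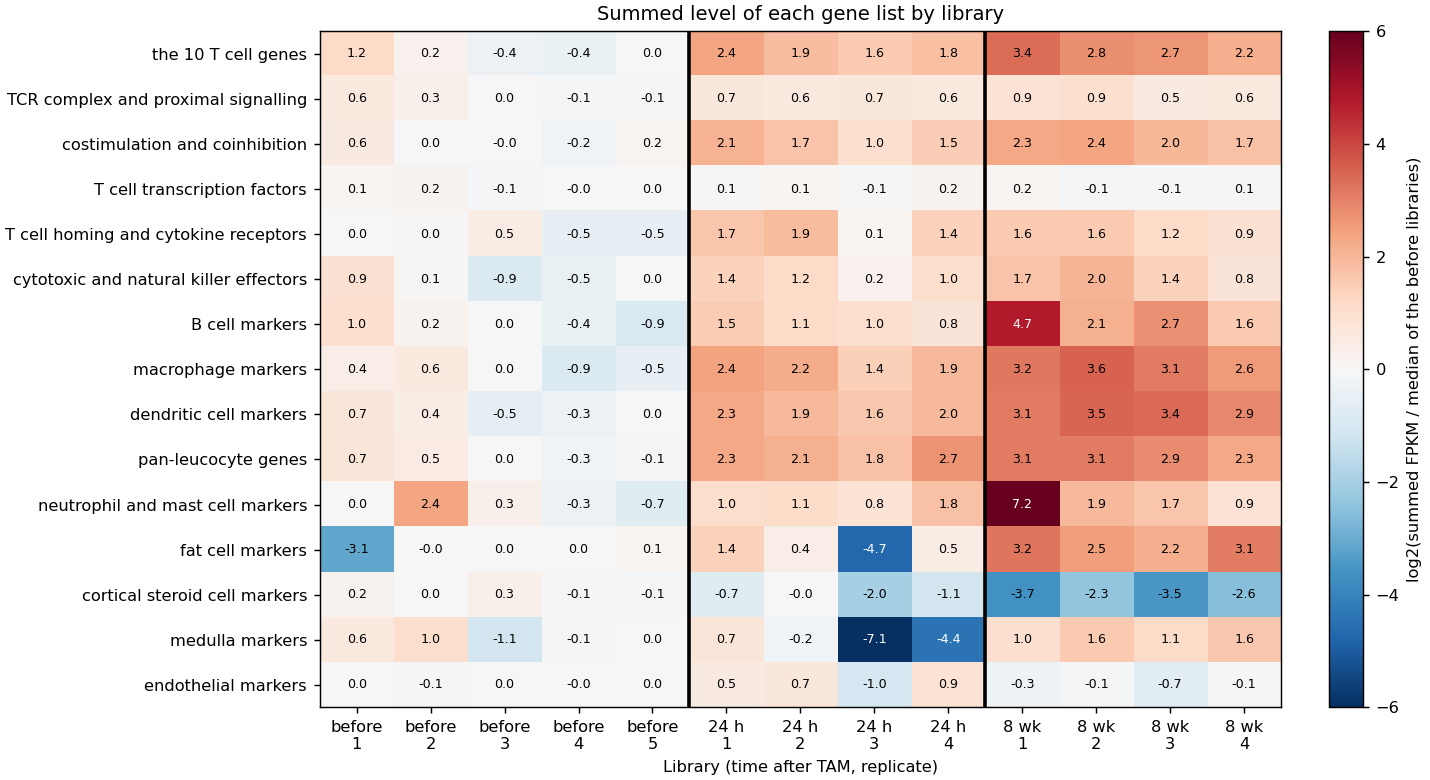
Summed FPKM of each gene list in each library as log2 over the median of the before libraries (colour and printed value), libraries in columns and lists in rows. The T cell genes are lowest before TAM, before replicate 1 stands out at 1.2 in that row and at −3.1 in fat cell markers, 24 h replicates 3 and 4 stand out at −7.1 and −4.4 in medulla markers, and 8-week replicate 1 at 4.7 in B cell and 7.2 in neutrophil and mast cell markers.

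**Figure D5:**
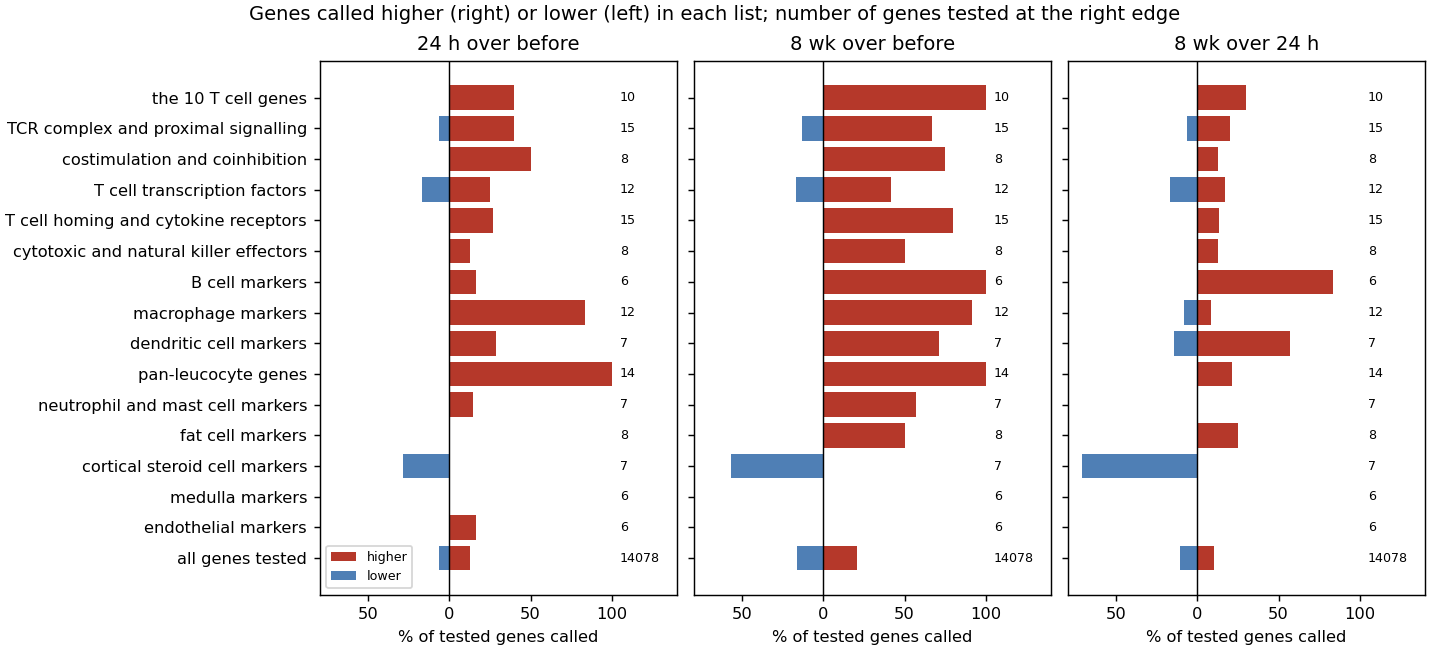
Percent of the tested genes of each list called higher (right, red) or lower (left, blue) in the 3 comparisons, with the number tested at the right edge and all 14078 genes in the lowest row. At 24 h over before the macrophage and pan-leucocyte lists reach 10 of 12 and 14 of 14 genes and the T cell genes 4 of 10, and at 8 weeks over before the T cell genes reach 10 of 10.

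Genes whose depth-scaled log2 counts followed Cd3e or Cd4 most closely over the 13 libraries were ranked among 13931 genes. The libraries fall into 3 groups that differ in level, so r is a description, and r of the deviations from the group means is given beside it. Nearest to Cd3e were Gimap7, a lymphocyte GTPase (r = 0.98, within groups 0.95), Cd96, an adhesion receptor of T and natural killer cells (0.98, within groups 0.94), the cytokine receptor Il27ra (0.97, within groups 0.92), Tbc1d10c (0.97, within groups 0.92), the chemokine receptors Cxcr3 (0.96, within groups 0.88) and Cxcr6 (0.96, within groups 0.88), Carns1 (0.96, within groups 0.91) and Gimap3 (0.96, within groups 0.93). Nearest to Cd4 were the Fc receptor gene Fcgr4 (r = 0.99, within groups 0.89), Lair1, an inhibitory collagen receptor (0.99, within groups 0.93), Actn1 (0.98, within groups 0.77), Clec7a, a beta-glucan receptor (0.98, within groups 0.73), Pvrl4 (0.98, within groups 0.73), Parvg (0.98, within groups 0.89), the stress-induced factor Atf3 (0.98, within groups 0.90) and Tifab (0.98, within groups 0.90). No gene was in both sets of 8. Among the T cell genes, Cd3e followed Cd3g (r = 0.98, within groups 0.95) more closely than Cd4 (0.71, within groups 0.56). Cd4 followed Ptprc (0.95, within groups 0.81) more closely than Cd3e. Within groups, Cd4 followed Cd8b1 (0.83), Cd2 (0.82) and Cd8a (0.78) about as closely as Ptprc. It followed Cd3d (0.69), Cd3g (0.61), Lck (0.50) and Cd28 (0.26) less closely within groups. Fcgr4 averaged 5.77 ± 2.22 FPKM before TAM (n = 5), 39.8 ± 8.70 at 24 h and 29.3 ± 6.18 at 8 weeks (SD, n = 4 each), and Cxcr6 averaged 0.861 ± 1.22, 1.78 ± 1.01 and 6.71 ± 2.64 FPKM at the same times.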

How the data were processed

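Per the labels' protocols, a TruSeq stranded mRNA kit was used on adrenal RNA. Per the submitters' processing notes, the tools were bcl2fastq 2.17 and TopHat2 2.0.14 and the build mm10. Per the file headers, the authors deposited an expected count and an FPKM value for each RefSeq transcript in each library. They also deposited log2 ratios, p-values and q-values of 8 weeks against before. No source used here names the program behind the expected counts. Expected counts were summed per gene over the 18738 transcripts listed in all 3 tables, and rounded. All 13 libraries entered 1 quasi-likelihood fit of 14078 genes in edgeR 4.0.16 (R 4.3.3), with filterByExpr, TMM factors, Benjamini-Hochberg adjustment and a threshold of 0.05. Gene-level adjusted p-values are from this fit, and SE is the absolute log2 fold change over the root of F. Ratios used FPKM + 0.05 and exact permutation tests (scipy 1.17.1), adjusted over 9 tests. Alternatives were no scaling, no filter, a replicate block, only the 2 groups compared, each library left out, limma 3.58.1 on log2(FPKM + 0.1), DESeq2 1.42.0 and, for ratios, 0.01 or 0.5 added to FPKM; leaving out before replicate 1 and 24 h replicate 3 together was chosen after seeing the data. All 10 members were listed in every table, so no fit was needed for unlisted members. Likeness was ranked on depth-scaled log2 counts (CPM, prior count 0.5) among genes of at least 1 on average, and the 8 nearest were named. From each list the 3 genes of lowest p at 8 weeks against before were named; others are said to be chosen after their values were seen, and 1 gene is not reported here. The members and lists were chosen with earlier results of these data known. Coordinates are 1-based on mm10.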

Additional observations from a re-analysis of the deposited data

Results flagged for a closer look

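84 groups of values were checked for a library outside its group, and chance flags about 1 in 20 groups. Before replicate 1 stood apart from the other before libraries in Cd3d (1.29 FPKM, others 0.187 to 0.437), Cd3e (1.503, others 0.195 to 0.425), Cd3g (3.46, others 0.195 to 0.662) and Cd28 (0.377, others 0.185 to 0.235). It also stood apart in the log2 ratio of Cd4 to Cd3e (−0.98, others 0.65 to 0.90), in the summed level of the 10 T cell genes (18.2 FPKM, others 6.20 to 9.57) and in fat cell markers (186 FPKM, others 1631 to 1781). Before replicate 2 stood apart in neutrophil and mast cell markers (65.7 FPKM, others 7.73 to 15.6). Replicate 1 at 8 weeks stood apart in B cell markers (118 FPKM, others 13.2 to 29.4) and in neutrophil and mast cell markers (1842 FPKM, others 23.7 to 49.0).

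The change since before TAM differed between 8 weeks and 24 h for Cd3d (log2 difference 2.13), Cd3e (2.14) and Cd2 (1.75), as tested directly between those groups with edgeR.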

How the results depend on the processing

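At 8 weeks against before, 10 of 10 T cell genes were called higher under every alternative run. Every alternative used genes listed by the same rule, so this count carries the listing limit and is not offered as support. At 24 h against before the count of 4 became 8 without before replicate 1 and 24 h replicate 3 together and ran from 3 to 7 when single libraries were left out, the 7 coming without before replicate 1. At 8 weeks against 24 h the count of 3 became 5 by DESeq2 and 0 with only those 2 groups in the fit (8 at an unadjusted p under 0.05 in edgeR), was 3 by limma, and ran from 0 to 4 when single libraries were left out. It was 0 without 8-week replicate 1 or 24 h replicate 2, 3 or 4 (3, 5, 6 and 5 at an unadjusted p under 0.05), and 1 without 8-week replicate 2, 8-week replicate 3 or before replicate 5. With the replicate number as a block the counts were 10, 4 and 4 in the order of comparisons above. At 24 h against before, 9 members had an unadjusted p under 0.05 in edgeR with the block and 5 without it. Same-numbered libraries correlated between −0.125 and 0.277 in their deviations over all genes, which cannot settle whether the numbers pair them. Replicate 1 was the highest of its group for 10 T cell genes at 8 weeks, 8 at 24 h and 9 before TAM. Cd4 at 8 weeks against 24 h ran from −0.39 to 0.070, turning to 0.0070 without 8-week replicate 4 and 0.070 without 24 h replicate 1.

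With 0.5 FPKM added, the log2 ratio of Ptprc to Cd3e differed by 0.036 at 8 weeks against before, 1.08 at 24 h against before (exact permutation p = 0.016) and −1.04 at 8 weeks against 24 h (exact permutation p = 0.057). With single libraries left out, the ratio of Cd4 to Cd3e at 8 weeks against 24 h differed by −2.61 to −1.80 and that of Ptprc to Cd3e by −1.77 to −0.90, where 3 against 4 libraries cannot go below an exact p of 0.057. Ptprc to Cd3e at 8 weeks against before ran from −1.12 (without before replicate 1, exact permutation p = 0.029) to −0.60. Cd4 to Csf1r at 8 weeks against 24 h ran from −0.040 to 0.25, turning negative without 24 h replicate 4 (−0.040) or 8-week replicate 1 (−0.0124). Without TMM scaling the median log2 fold change of all genes was −0.10 in place of 0.03 at 8 weeks against before and −0.12 in place of −0.03 at 8 weeks against 24 h. The causes of these changes were not tested. Low counts limit Cd8a, Cd8b1, Cd2 and the CD3 genes before TAM, and no filter on low counts gave the same fit, since every gene passed it.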
